A study of Mus musculus with 8 samples.

Results

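Nnat, Blcap, Gnas and Gnasas1 are imprinted genes of mouse chromosome 2, and H3K27me3 over them was measured by ChIP-seq in embryonic stem cells. The deposited table counts reads over transcript intervals, each running from the start to the end of an annotated transcript with its introns. An interval was taken as a member when its best match among RefSeq genes was one of the 4 genes, with the bases shared by both spans making up 0.5 or more of the bases covered by either. This gave 12 of 50398 intervals, with 2 for Nnat, 2 for Blcap, 7 for Gnas and 1 for Gnasas1. The weakest match inside the limit was a 4164 bp interval that overlapped Nnat at 0.588. It averaged 0.527 counts per kb per 1000000 counts over the 4 libraries. The strongest match outside it was a 4868 bp interval on the plus strand that overlapped Gnasas1 at 0.343, and it averaged 0.642.

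The cells were E14tg2a mouse embryonic stem cells of 129SV background, and all of them carried a stable cRAF-ErT2 cassette, a RAF kinase that 4-hydroxytamoxifen (4OHT) switches on to drive ERK signalling. The groups were cells with 250 nM 4OHT for 2 h and untreated cells (0 h), each in clones A and B, so each time had 2 libraries and each clone gave 1 library per time. All cells, untreated ones too, had been moved 24 h earlier from serum, LIF and 2 µM Chir99021, a GSK3 inhibitor, to serum and LIF plus the FGF receptor inhibitor PD173074 at 250 nM. Whether a clone was grown from a single cell, and the cassette's promoter, are not stated in the sources used here. Column totals were 92518605 (clone A, 2 h), 70378127 (clone A, 0 h), 85062523 (clone B, 2 h) and 81279899 (clone B, 0 h) counts. Intervals overlap, so these totals count reads more than once.

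H3K27me3 is placed by Polycomb repressive complex 2 and is typically found over CpG-rich promoters of silent genes. Imprinted genes are expressed only or mainly from the maternal or the paternal allele, some of them only in certain tissues or from certain promoters. DNA methylation, and at some loci H3K27me3, lies on the silent copy. Which alleles were in use in these cells was not measured. Nnat encodes neuronatin, a small membrane protein of the brain and other tissues, and is expressed from the paternal allele. It lies inside an intron of Blcap, which runs the other way and encodes a small protein linked to control of apoptosis. Gnas encodes the stimulatory G protein subunit Gs alpha. Its locus has several promoters in a known order: Nesp (maternally expressed), the XL alpha s promoter (paternal), the untranslated exon 1A (paternal) and Gs alpha itself. Gnasas1, also called Nespas, is a paternally expressed RNA antisense to Nesp.

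The sequences before 4 of the annotated starts are shown because the segments described next begin or end beside them. Each is the 250 bases before a RefSeq transcript start (GRCm38.p6, the assembly behind mm10), 5′ to 3′ on the strand of the gene, with CG dinucleotides in capitals.
Nnat, chr2:157559828-157560077, plus strand: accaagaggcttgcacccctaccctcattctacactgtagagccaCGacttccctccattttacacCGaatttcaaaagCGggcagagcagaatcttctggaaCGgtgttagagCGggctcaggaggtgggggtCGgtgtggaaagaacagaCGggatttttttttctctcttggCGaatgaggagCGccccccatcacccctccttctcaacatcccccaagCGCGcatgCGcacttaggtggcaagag
Gnas start at 0 kb, chr2:174284070-174284319, plus strand: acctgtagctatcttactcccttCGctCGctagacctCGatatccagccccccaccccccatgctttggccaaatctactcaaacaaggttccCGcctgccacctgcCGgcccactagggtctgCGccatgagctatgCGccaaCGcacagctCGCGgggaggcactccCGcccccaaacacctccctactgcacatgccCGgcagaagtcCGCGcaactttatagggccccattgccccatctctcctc
Gnas start at 43448 bp, chr2:174327518-174327767, plus strand: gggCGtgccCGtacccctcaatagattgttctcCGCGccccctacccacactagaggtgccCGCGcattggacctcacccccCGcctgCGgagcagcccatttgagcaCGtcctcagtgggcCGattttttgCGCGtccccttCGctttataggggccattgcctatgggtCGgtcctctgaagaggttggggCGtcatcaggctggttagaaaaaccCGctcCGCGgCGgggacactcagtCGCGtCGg
Gnas start at 45686 bp, chr2:174329756-174330005, plus strand: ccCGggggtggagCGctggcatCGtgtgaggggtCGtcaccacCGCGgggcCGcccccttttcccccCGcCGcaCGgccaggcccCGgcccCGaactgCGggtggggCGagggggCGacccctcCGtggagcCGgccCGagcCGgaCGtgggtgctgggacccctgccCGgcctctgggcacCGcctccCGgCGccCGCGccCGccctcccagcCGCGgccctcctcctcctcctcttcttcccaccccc

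These windows held 12 CG dinucleotides before Nnat and 14, 22 and 29 before the 3 Gnas starts, in order along the gene. The median over 32851 RefSeq promoters of this length was 6, and 66.5%, 70.6%, 85.2% and 93.2% of promoters held fewer than these 4. The hexamer TGCCGC, the core of the motif of the imprinting factor ZFP57, was searched on both strands. It was found in none of the 4 windows and in 8.68% of all promoters.

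The level of the mark is given as density, the count per kb of interval per 1000000 counts of the column total. The median gene, over 20287 genes with 1 interval each, stood at 0.358. Density is not divided by input, and it is an average over all cells and both alleles: more marked cells or alleles and more mark on each cannot be told apart. The 12 measured pluripotency genes had a median of 0.309 times the median gene, with Utf1 highest at 3.06 times and Prdm14 next at 1.56. These values do not test the labelled cell type, since the ChIP does not measure whether the genes are expressed.

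The clones differed at these loci more than the times did, and in opposite directions at different points. Nnat and its surroundings carried more H3K27me3 in clone A. The start of the Gnas locus, with Gnasas1, carried more in clone B, and the stretch beyond it carried more in clone A. The genes were chosen by their H3K27me3 counts in these 4 libraries, with the clones set apart, so their levels and clone values are a description and were not tested.

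The Nnat interval proper (chromosome 2, 157560078 to 157562525, mm10) measured 0.609 at 2 h and 0.615 at 0 h in clone A, against 0.240 at 2 h and 0.246 at 0 h in clone B. Clone A gave raw counts of 138 and 106 there, and clone B 50 and 49. Clone A was thus 2.52-fold higher than clone B at 2 h and 2.48-fold at 0 h. The longer Nnat interval reaches 1716 bp further upstream (157558362 to 157562525). It measured 0.807 at 2 h and 0.809 at 0 h in clone A, against 0.223 at 2 h and 0.269 at 0 h in clone B. Here clone A was 3.60-fold higher at 2 h and 3.0-fold at 0 h.

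Taking the short interval from the long one leaves the reads before the Nnat start, where the promoter window printed above lies. This 1716 bp stretch held 173 counts at 2 h and 131 at 0 h in clone A, against 29 at 2 h and 42 at 0 h in clone B. As densities these were 1.09 and 1.09 in clone A, above the median gene, and 0.199 and 0.301 in clone B, below it. Clone A was 5.41-fold and 3.57-fold higher there, a wider gap than over the Nnat body.

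**Figure D1:**
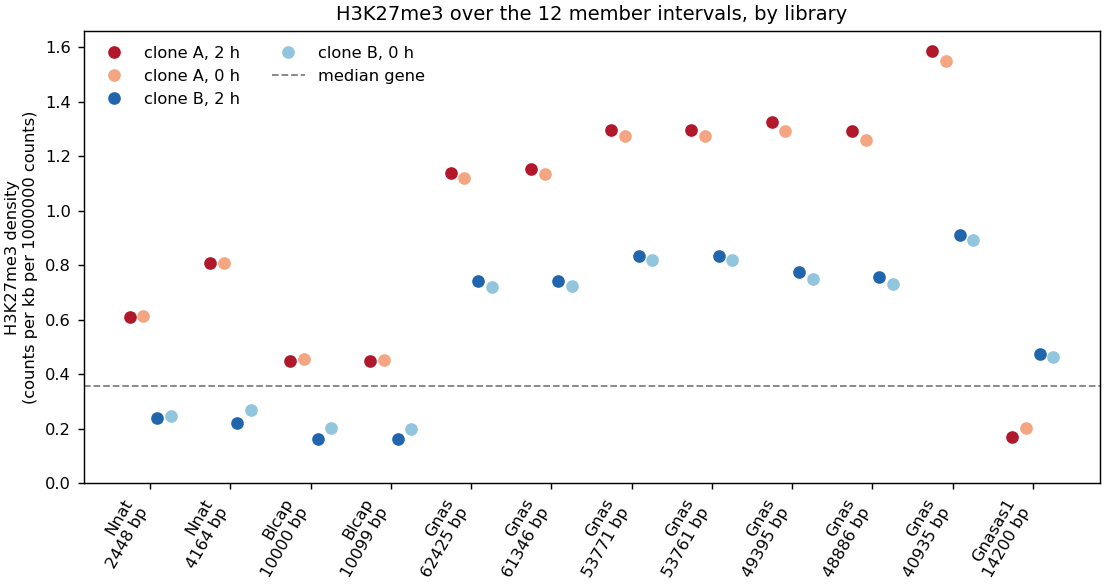
H3K27me3 density (counts per kb per 1000000 counts) of each of the 12 member intervals, with 1 point per library coloured by clone and time, and the median gene as a dashed line. Clone A lies above clone B in the 11 Nnat, Blcap and Gnas intervals, and below it in Gnasas1, where clone A measured 0.172 and 0.202 and clone B 0.474 and 0.464.

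Whether the counting separated strands is not stated in the sources used here. Blcap (157556362 to 157566361) is taken to share the Nnat reads, because Nnat lies inside it. It measured 0.450 at 2 h and 0.456 at 0 h in clone A, against 0.163 at 2 h and 0.203 at 0 h in clone B. Its second interval, 10099 bp long, begins slightly further upstream and adds at most 2 counts per library. Most of the Blcap reads came from the long Nnat interval. That interval held 74.8% (95% Wilson interval 70.4 to 78.7) and 73.8% (68.8 to 78.3) of them at 2 h and 0 h in clone A, and 56.8% (48.5 to 64.8) and 55.2% (47.5 to 62.5) in clone B. These shares compare positions within a library, so no scaling between libraries enters them. They can still depend on how well the ChIP of each library enriched the mark, which was not tested.

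The 5836 bp of Blcap outside the long Nnat interval measured 0.194 at 2 h and 0.205 at 0 h in clone A, against 0.121 at 2 h and 0.156 at 0 h in clone B. All 4 values lie below the median gene. Clone A was 1.603-fold higher there at 2 h and 1.31-fold at 0 h. The gap between the clones was therefore smaller in the rest of Blcap than over Nnat or before its start.

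**Figure D2:**
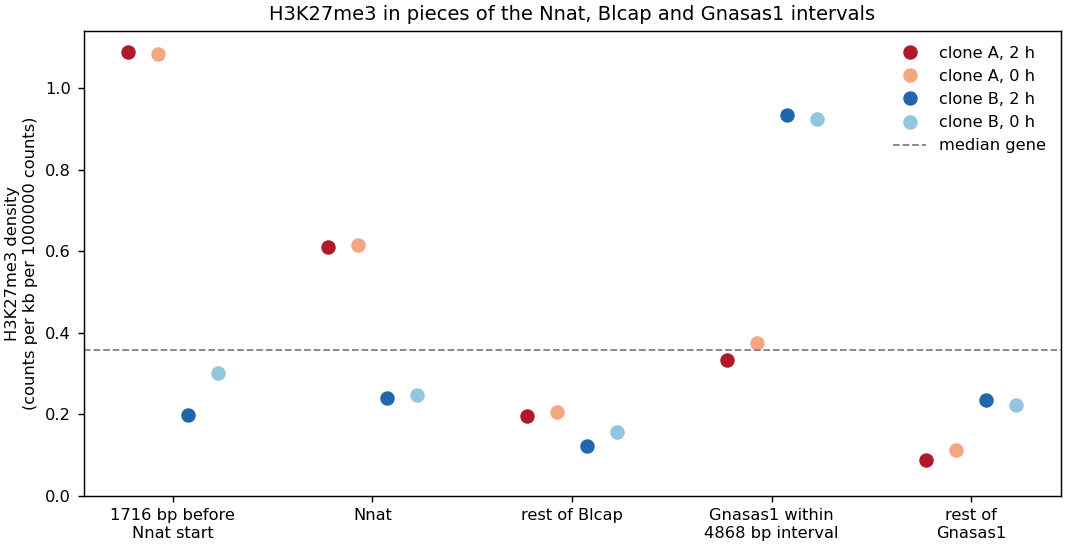
H3K27me3 density (counts per kb per 1000000 counts) in pieces of the Nnat, Blcap and Gnasas1 intervals, 1 point per library, with the median gene as a dashed line. Before the Nnat start clone A measured 1.09 at both times against 0.199 and 0.301 in clone B, while in both pieces of Gnasas1 clone B was the higher clone.

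The Gnas locus carried more mark in all. The longest Gnas interval (174284320 to 174346744, 62425 bp) measured 1.14 at 2 h and 1.12 at 0 h in clone A, against 0.741 at 2 h and 0.720 at 0 h in clone B. It averaged 2.60 times the median gene, and clone A was 1.54-fold higher at 2 h and 1.55-fold at 0 h. The other 6 Gnas intervals start or end elsewhere within it and share most of its reads. They averaged between 2.62 and 3.46 times the median gene, highest in the 40935 bp interval, which leaves out the first part and the 3′ end. There clone A was 1.74-fold higher at 2 h and 1.73-fold at 0 h.

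Nested intervals divide the Gnas span into 9 segments, and the mark was uneven along them. Positions are given from the annotated Gnas start. The first segment, 1079 bp long, held 25 counts at 2 h and 14 at 0 h in clone A, against 61 at 2 h and 51 at 0 h in clone B. Its densities were 0.250 and 0.184 in clone A, against 0.665 and 0.582 in clone B. The second segment, 11951 bp long, measured 0.440 and 0.487 in clone A, against 0.607 and 0.616 in clone B. Clone B was the higher clone in both segments at both times, by 2.62-fold and 3.08-fold in the first and 1.38-fold and 1.26-fold in the second.

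From 13030 bp on, the order turned round. A 2947 bp interval that begins 13539 bp after the start (174297859 to 174300805), on the plus strand, was the densest segment of the locus. It measured 6.41 at 2 h and 5.71 at 0 h in clone A, against 2.78 at 2 h and 2.51 at 0 h in clone B, a mean of 12.2 times the median gene. Clone A was 2.31-fold higher at 2 h and 2.27-fold at 0 h. The 509 bp just before it measured 4.40 and 4.36 in clone A, against 2.33 and 2.54 in clone B.

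The next 26937 bp held the largest number of counts but at a lower density, 1.11 at 2 h and 1.15 at 0 h in clone A, against 0.699 at 2 h and 0.685 at 0 h in clone B. Gm30189, a long non-coding RNA annotated on the minus strand at its far end, was denser than this average. It measured 2.17 and 2.30 in clone A, against 1.64 and 1.59 in clone B.

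A second dense segment followed at 43423 bp. Its 2086 bp, which hold the annotated start at 43448 bp, measured 4.37 at 2 h and 4.15 at 0 h in clone A, against 3.14 at 2 h and 3.10 at 0 h in clone B. That is 10.3 times the median gene on average. The clones were closer here, with clone A 1.39-fold and 1.34-fold higher, than in the dense segment at 13539 bp. The density dropped in the next 241 bp, which include the annotated start at 45686 bp. They measured 0.538 and 0.649 in clone A, against 0.439 and 0.153 in clone B, from 3 to 12 counts per library. The 8021 bp from 45750 bp on measured 0.468 and 0.471 in clone A, against 0.254 and 0.295 in clone B. The last 8654 bp measured 0.151 and 0.149 in clone A, against 0.158 and 0.111 in clone B, below the median gene in all 4 libraries. Over these last 8654 bp clone A was lower at 2 h and higher at 0 h.

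**Figure D3:**
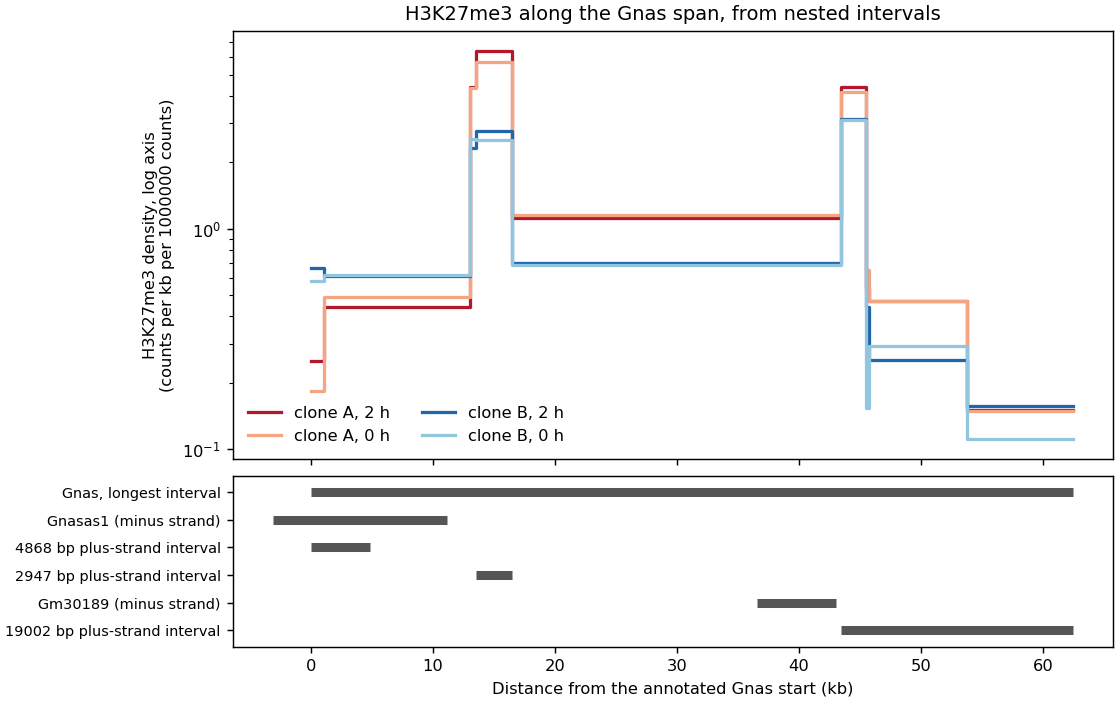
H3K27me3 density (counts per kb per 1000000 counts, log axis) in the 9 segments of the Gnas span by distance from the annotated Gnas start in kb, 1 line per library, with selected intervals as bars beneath. Clone B is higher up to about 13 kb and clone A from there to the penultimate segment, and the peaks at 13539 and 43423 bp averaged 12.2 and 10.3 times the median gene.

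Within a library, the first 2 segments, 13030 bp in all, held 7.80% (95% Wilson interval 7.17 to 8.47) and 8.62% (7.87 to 9.44) of the Gnas reads at 2 h and 0 h in clone A. In clone B they held 17.2% (16.1 to 18.5) and 17.8% (16.6 to 19.03). The dense 2947 bp segment went the other way, with 26.6% and 24.1% in clone A, against 17.7% and 16.5% in clone B. The 95% Wilson intervals there were 25.6 to 27.7 and 22.9 to 25.3 in clone A, which do not overlap each other, against 16.6 to 18.9 and 15.3 to 17.7 in clone B. In both cases the intervals of the clones did not overlap. Intervals of this kind cover counting error only, and the genes were chosen with the clone values known. The lack of overlap is therefore a description and not a test of the clones. How well each ChIP enriched the mark can also enter these shares and was not tested.

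Gnasas1 (174281237 to 174295436, minus strand) overlaps the first segments of Gnas. It measured 0.172 at 2 h and 0.202 at 0 h in clone A, against 0.474 at 2 h and 0.464 at 0 h in clone B. Clone A thus stood at 0.363 times clone B at 2 h and 0.437 times at 0 h. The 4868 bp plus-strand interval inside it (174284306 to 174289173) begins 14 bp before the annotated Gnas start. It measured 0.333 and 0.374 in clone A, against 0.935 and 0.925 in clone B. The other 9332 bp of Gnasas1 measured 0.0880 and 0.113 in clone A, against 0.234 and 0.223 in clone B. Both pieces of Gnasas1 were thus higher in clone B, and the mark was denser within the 4868 bp interval.

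The whole table gives a scale for these differences. Clone A was at least 1.5-fold above clone B at both times in 0.96% of the 50398 intervals, and at least 1.5-fold below it in 0.99%. Of the 12 member intervals, 11 were above and 1, Gnasas1, below. Nothing is read from this count, since the clone values chose the members and their intervals share reads. Restricted to the 42201 intervals that averaged 100 counts or more, these shares were 0.898% and 0.464%, and the log2 ratio of clone A to clone B had a median of -0.01 and an SD of 0.23. Among these, the long Nnat interval, at 1.72, had the highest ratio, and the Blcap intervals at 1.31 and 1.304 came next. Gnasas1, at -1.33, had 8 intervals below it, and the 4868 bp interval, at -1.39, had 5. The shorter Nnat interval, at 1.32, averaged fewer than 100 counts and was left out of this ranking. Without that floor, ratios over all intervals ran from -2.31 to 2.83.

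The clone A libraries had higher densities at dense sites generally, by the median. Density is not divided by input, and a difference between the libraries in how well the ChIP enriched the mark was not tested. Over the 2459 intervals at 4 times the median gene or more, the median log2 ratio was 0.19, against -0.02 over all intervals. In that dense set 1.63% were at least 1.5-fold higher in clone A at both times and 0.285% lower. The direction at Nnat and in most of Gnas is that of the dense intervals, and the direction at Gnasas1 and the first Gnas segments is the opposite one. No member interval is itself in that dense set, and the Nnat intervals stood at 1.20 and 1.47 times the median gene. The part of this general difference in the values at Nnat and Gnas was not tested.

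**Figure D4:**
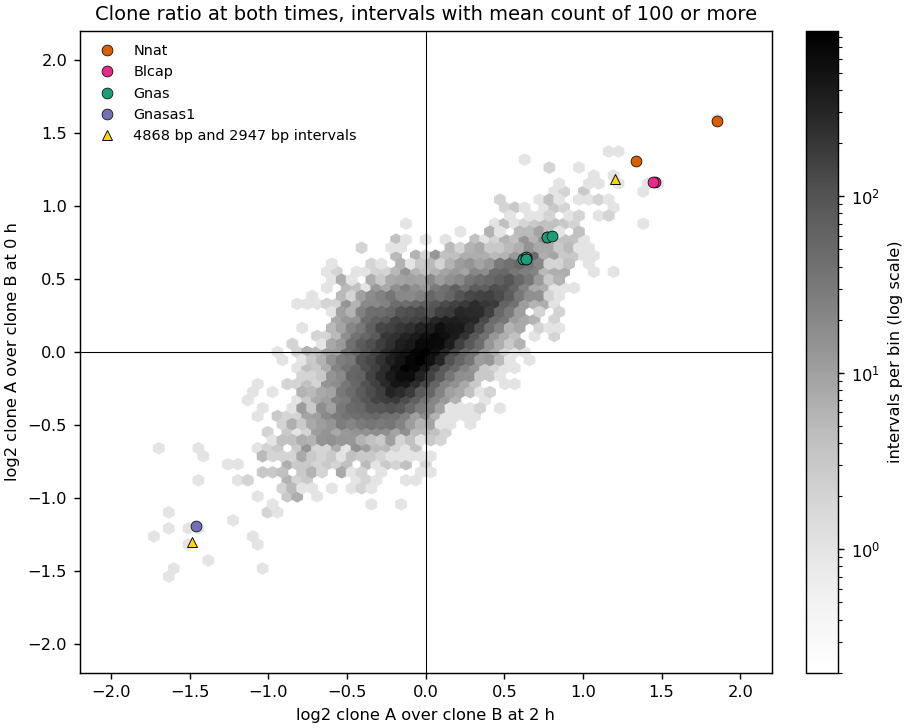
Log2 ratio of clone A to clone B at 2 h (x axis) and at 0 h (y axis), with intervals of mean count 100 or more as grey bins and the 12 members as circles, the shorter Nnat interval with fewer counts included. The long Nnat interval lies at 1.85 and 1.58, Gnasas1 at -1.46 and -1.20, and the 2 triangles mark the 4868 bp and 2947 bp plus-strand intervals inside the Gnas locus.

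Genes around the 2 loci were read for comparison. Of the 6 nearest named genes to Nnat and Blcap, none reached a 1.5-fold difference between clones at both times. Over all genes only 1.1% were this far higher in clone A and 1.2% lower, so nothing is read from that count. Src, a tyrosine kinase gene 84524 bp away, measured 0.143 and 0.147 in clone A, against 0.145 and 0.124 in clone B. Ctnnbl1, a spliceosome-associated gene 170941 bp away, measured 0.134 and 0.132 in clone A, against 0.141 and 0.127 in clone B. The others (Platr27, Gm34293, Manbal and Gm39974) had mean log2 ratios of clone A to clone B between 0.08 and 0.42.

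Beside Gnas, Nelfcd, which encodes a subunit of the negative elongation factor, measured 0.0665 and 0.0850 in clone A, against 0.0643 and 0.0684 in clone B. Ctsz, a lysosomal protease gene, measured 0.116 and 0.114 in clone A, against 0.152 and 0.148 in clone B. Gm10714, Tubb1 and Atp5e had mean log2 ratios between -0.11 and -0.00. All 5 of these genes averaged under 1.75 times the median gene, and Gm30189 lies inside Gnas and shares its reads.

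Other imprinted genes were taken from a list of 54, of which 52 were measured. Of these, 13 (25%) reached 4 times the median gene, against 5.77% of all genes. All 13 but Klf14 lie on chromosome 7, many of them close together, so the share does not describe imprinted genes in general. None of the 12 member intervals reached that level, near the 4.88% of all intervals, and nothing is read from that count. The median of the 52 imprinted genes was 1.26 times the median gene. The densest were Cdkn1c, a cell cycle inhibitor, at 12.8 times, Ascl2, a trophoblast regulator, at 11.3, Klf14 at 11.3 and Igf2, a fetal growth factor, at 10.2. The sparsest were Rhox5 at 0.0966 and Tssc4 at 0.190. The dense segments of Gnas lay in the range of the densest imprinted genes although its whole interval did not. The other genes were averaged over whole intervals and not divided into segments, so these are unlike measures.

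The clones differed by at least 1.5-fold at both times in 2 of the 52, both higher in clone A, against 1.1% higher and 1.2% lower over all genes. They were Mkrn3, at 0.581 and 0.463 in clone A, against 0.212 and 0.271 in clone B, and Peg12, at 3.40 and 2.92 in clone A, against 2.15 and 1.75 in clone B, both named after their values were seen. The list had a median log2 ratio of -0.00, against -0.02 over all intervals.

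The genes whose pattern over the 4 libraries was most like that of the Nnat interval were sought among 15591 genes outside the 2 loci whose intervals averaged 100 counts or more, by the distance between log2 densities centred on each gene's mean. The nearest were Gm13034 (distance 0.140), Gm35033 (0.161), Gm31519 (0.213), Adrb3 (0.218), a beta-adrenergic receptor gene, and Repin1 (0.263), a zinc finger gene. Adrb3 measured 0.744 and 0.769 in clone A, against 0.354 and 0.345 in clone B.

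The study's own comparison was 2 h of 4OHT against untreated cells, that is, whether ERK activation moved the mark. None of the 12 member intervals passed edgeR's quasi-likelihood test with Benjamini-Hochberg adjustment, and neither did any of the 50037 intervals tested (0% called higher and 0% lower). Before adjustment, 188 intervals (0.376%) had a p under 0.05 by edgeR, and none was a member. With the clone letter as a replicate block, 2078 (4.15%) had one, again no member, and 0 passed the adjustment. DESeq2 also called 0, with 2 under 0.05 before adjustment. The log2 changes of the members were 0.01 for the shorter and -0.03 for the longer Nnat interval, -0.08 and -0.07 for Blcap, 0.03 to 0.05 for Gnas and -0.07 for Gnasas1. The median over all intervals was 0.01.

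With the clones as replicates, the interval around each change was wide. For the longer Nnat interval the SE was 0.65 (n = 2 per time, 95% interval -1.59 to 1.52), and for the longest Gnas interval 0.26 (-0.59 to 0.65). Per clone, the longer Nnat interval changed by 0.02 in clone A, against -0.30 in clone B, and Gnas by 0.04 in clone A, against 0.01 in clone B. With the clone letter as a replicate block, no member passed either, and the 95% intervals were -0.38 to 0.21 for the longer Nnat interval, -0.37 to 0.12 for Blcap, -0.07 to 0.13 for the longest Gnas interval and -0.28 to 0.13 for Gnasas1. The call at the longer Nnat interval depended on a single library: without clone A at 2 h its log2 value was -1.28 and its adjusted p by edgeR 0.0423. That fit sets clone B alone at 2 h against both clones at 0 h, so time and clone cannot be told apart in it.

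**Figure D5:**
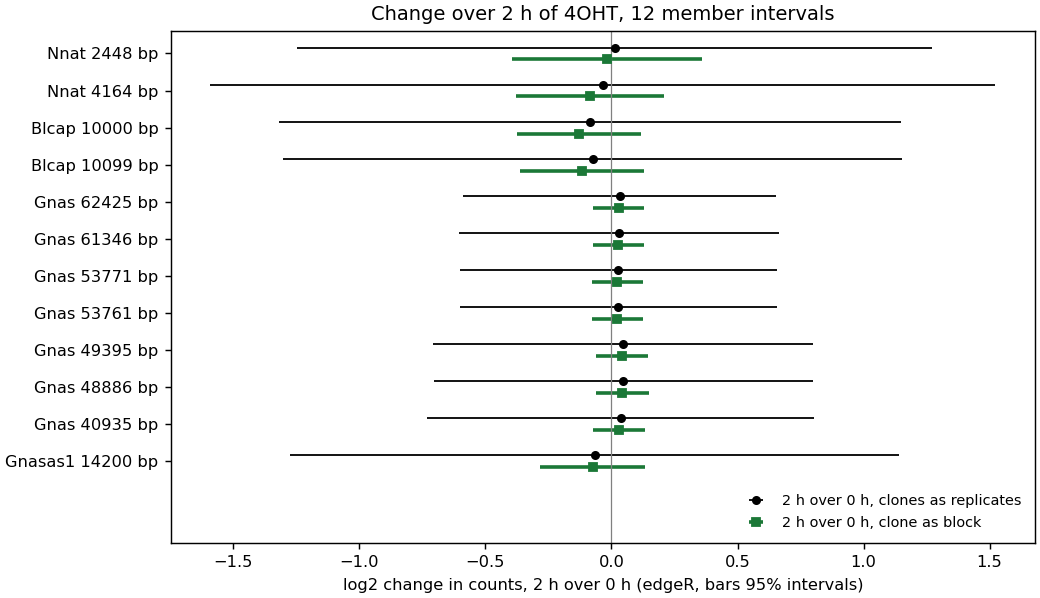
Log2 change in counts at 2 h over 0 h for the 12 member intervals by edgeR, with 95% intervals, from the fit with clones as replicates (circles) and with the clone as a block (squares). All 24 intervals include 0, and the estimates lie between -0.13 and 0.05.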

How the data were processed

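The members and lists were chosen with earlier results of these data known. Raw read counts per transcript interval were deposited by the authors for the 4 H3K27me3 libraries, per the file headers. The submitters' processing notes name Bowtie2, bedtools and mm10. No source used here states versions, filters, strand handling or counting options. Overlapping intervals on opposite strands were taken to share reads. Chromatin was fixed with 1% formaldehyde for 10 min, per the labels' protocols. The table's other 12 columns of per-library values, of which 4 are these counts per kb, and 4 columns per time stayed unused, and the 4 input libraries and chromosomes beyond 1 to 10, X, Y and M were not analysed here.

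Intervals were matched to RefSeq genes of GRCm38.p6 by overlap over union (at least 0.5), strand ignored; the best-matching interval stood for a gene. Density and clone ratios used column totals, the ratios with 0.5 counts added. Where an interval lies inside another, its counts were subtracted from the larger one and the difference divided by the remaining length (segments of at least 200 bp). Reads across a boundary stay with the smaller interval. Subtraction at intervals sharing no end, the limit of 4 times the median gene and the 1.5-fold limit were chosen after seeing the data.

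The time comparison used edgeR 4.0.16 on counts of all intervals (TMM, filterByExpr, Benjamini-Hochberg over 50037 intervals, threshold 0.05), with DESeq2 1.42.0 as an alternative, R 4.3.3 and Python 3.11.15. The clone letter in the labels pairs the libraries. Deviations from the mean of each time correlated between both libraries of a clone (r = 0.53 over intervals, which are not independent). Both clones derive from 1 line, so a p-value reflects the spread of these samples, possibly technical. Named genes were all members, up to 6 neighbours per locus within 300 kb, the 4 densest and 2 sparsest other imprinted genes, and the 5 genes most like Nnat. Sequences come from RefSeq; promoters were found for 3 of the 4 genes.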

Additional observations from a re-analysis of the deposited data

Results flagged for a closer look

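In 4 member intervals the changes of the clones over 2 h had opposite signs. Each clone has 1 library at each time, so the difference between the clones' changes was not tested. On the log2 scale the longer Nnat interval changed by 0.02 in clone A, against -0.30 in clone B, a difference of 0.31. The 10099 bp Blcap interval, which shares those reads, changed by 0.01 in clone A, against -0.32 in clone B, a difference of 0.32, while the 10000 bp Blcap interval, with nearly the same reads, changed by -0.0011 in clone A, against -0.34 in clone B, the same direction. Of these, the clone A values at Nnat and Blcap were close to 0. The shorter Nnat interval changed by 0.0044 in clone A, against -0.06 in clone B, a difference of 0.068. Gnasas1 changed by -0.21 in clone A, against 0.01 in clone B, a difference of -0.22, and here the clone B value was close to 0.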

How the results depend on the processing

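In the comparison of 2 h with 0 h, edgeR called 0 intervals with the replicate block (clone letter), with DESeq2 size factors or column totals for scaling, without a filter on low counts and with 1 interval per gene, as did DESeq2; leaving out each library gave 0 to 1, the 1 being the longer Nnat interval without clone A at 2 h. The block changed no call. The shorter Nnat interval, at 0.01, turned to -0.018 in the paired fit and -0.012 with DESeq2. Leaving out 1 library confounds time with clone and gave log2 values of -0.84 to 0.79 and -1.28 to 0.95 for the Nnat intervals, -1.03 to 0.60 and -1.005 to 0.61 for Blcap, and -0.97 to 0.66 for Gnasas1. For the Gnas intervals, in order of decreasing length, the ranges were -0.34 to 0.38, -0.35 to 0.39, -0.35 to 0.38, -0.35 to 0.38, -0.42 to 0.49, -0.41 to 0.49 and -0.45 to 0.48. The log2 clone ratio of Nnat was 1.34 with TMM totals and 1.52 as a mean of both intervals, and that of Gnas 0.65 and 0.70. Without each library it was 1.31 to 1.34 for Nnat, 0.61 to 0.65 for Gnas, with no sign change at any of the 4 genes. With 1 library left out at a time, the density over that of the median gene was 1.02 to 1.38 for Nnat. It was 0.76 to 1.04 for Blcap, 2.40 to 2.80 for Gnas and 0.78 to 1.06 for Gnasas1. As a mean over all intervals of the gene it was 1.33 for Nnat and 2.90 for Gnas. An overlap limit of 0.4 kept 12 members, and 0.6, or a margin of 0.2 over the next gene, 11. With a 2-fold limit, added after seeing the data, 5 of the 12 members were past it at both times (the Nnat, Blcap and Gnasas1 intervals), against 0.0615% of intervals higher in clone A and 0.123% lower. Nothing is read from this count either, since the clone values chose the members and the Nnat and Blcap intervals share reads. Counts of 29 to 173 per library, left by subtraction, limit the precision before the Nnat start.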
